A study of Iris tectorum with 6 samples.

Results

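NBS-LRR proteins are the intracellular immune receptors of plants. A central nucleotide-binding domain holds ADP in the resting receptor and ATP in the active one, and a leucine-rich repeat domain takes part in recognition and in keeping the receptor off. An amino-terminal coiled coil or TIR (Toll and interleukin-1 receptor) domain passes the signal on. Some receptors bind pathogen effectors directly, while others guard a host protein and respond when it is altered, and the outcome is often local cell death. Most plants keep these genes at low transcript levels, and the family is known for near-identical copies in tandem arrays.

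The unigenes (assembled transcripts) described here are those whose best protein description named a disease resistance protein, a disease resistance RPP13 protein, an NBS-LRR protein or a TMV resistance protein. The rule found 98 of the 111791 unigenes with reads in at least 1 analysed library. None of the 98 carried the words TMV resistance protein. The leaves came from Iris tectorum, a flowering monocot, grown in swine wastewater in a glasshouse at an average flooding height of 12.3 cm. In one group the iris grew alone, and in the other it shared the wastewater with the microalga Dictyosphaerium sp.; the wastewater and the flooding were common to both. Libraries from plant alone replicates 2 and 3 and co-culture replicates 1, 2 and 3 were used; plant alone replicate 1 was not analysed here. The labels call the samples replicates without saying whether they were separate plants, so p-values measure only the spread between these libraries.

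Each library held 18616931 to 22975621 expected counts, and the listed resistance unigenes took 0.0348% to 0.064% of them. A count of 0 still allows a level of up to 0.124 to 0.172 CPM (counts scaled to library size, with TMM factors), depending on the library, for counting error alone. Leaf markers were high in all 5 libraries but uneven: the 9 unigenes of the rubisco small chain summed to 1946 and 762.8 CPM in plant alone 2 and 3, and to 2573, 6600 and 254 CPM in co-culture 1, 2 and 3. The 358 unigenes with a green alga protein hit summed to 2724 and 3394 CPM in plant alone and to 2102, 2250 and 1952 CPM in co-culture. Across the more abundant unigenes only, plant alone 2 correlated with plant alone 3 at a Spearman's rho of 0.827 and with co-culture 1 at 0.816. With co-culture 2 and 3 it correlated at 0.649 and 0.659. Co-culture 1 therefore ranked these transcripts closer to the plants grown alone than the other co-culture libraries did. The part of these library differences in the results below was not tested.

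The names carried by the unigenes are those of similar proteins in other plants, so a name gives resemblance and not a tested specificity. Of the 98 unigenes, 79 matched a monocot protein and 19 a eudicot protein. Oil palm (Elaeis guineensis) gave 29 of the hits, date palm (Phoenix dactylifera) 18, and banana (Musa acuminata) and asparagus (Asparagus officinalis) 9 each. Only 3 descriptions held the word TIR, and all 3 hits were eudicot proteins; TIR-type receptors are known to be rare or missing in monocots. The KEGG column listed RPS2 for 34 unigenes and RPM1 for 33, both Arabidopsis receptors of the coiled-coil type, and 21 carried the GO term ADP binding. An RPS2 or RPM1 entry was thus found for 67 of the 98. The KEGG column also listed the endonuclease SLX1 for 25 unigenes and the leucine-rich repeat protein SHOC2 for 11, and 4 had no entry. The rule did not take in 83 further unigenes with an RPS2 or RPM1 entry, of which 64 were tested, 32 fitted higher and 32 lower in co-culture.

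Many of the unigenes were short, and many resembled the same protein. Their lengths ran from 200 to 5277 bases with a median of 796.5 bases, and 44 reached 1000 bases. The 98 unigenes matched 64 different proteins, and 55 of them shared their best hit with at least 1 other unigene on the list. Assembly clusters, whose contigs can share reads, held 39 unigenes in 13 clusters, and the other 59 stood alone. Contigs of a cluster were therefore not independent measurements, and the split of reads between them is uncertain.

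Levels differed widely within the list and were not compared with those of all unigenes. Per length, the mean level over the 5 libraries had a median of 1.46 FPKM (fragments per kilobase, scaled to library size), and it ran from 0.05 to 57.6 FPKM. A mean of 5 FPKM or more was reached by 15 of the 98. Reads were found for 88 and 76 unigenes in plant alone 2 and 3, and for 89, 82 and 87 in co-culture 1, 2 and 3. All 5 libraries held reads for 64 unigenes, and 5 were seen in a single library. The filter on low counts left 73 of the 98, beside 69984 of all 111791 unigenes. Those 73 had a median length of 1165 bases, against 351 bases for the 25 not tested.

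The comparison of co-culture with plant alone asked whether leaf transcripts differed when the alga shared the wastewater. No resistance unigene passed an adjusted p of 0.05 in edgeR's quasi-likelihood test, 0 of 73, and neither did any of the 69984 unigenes tested (0%). The smallest adjusted p over all unigenes was 0.628, with a biological coefficient of variation of 0.773. DESeq2 on the same counts called 0.899% of all tested unigenes higher in co-culture and 0.977% lower at an adjusted p of 0.05, and none of the resistance unigenes. No difference described below passed either test over all 5 libraries. In bulk leaf, fewer cells of a type and less RNA per cell cannot be told apart.

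At an unadjusted edgeR p of 0.05, 3 of the 73 were higher in co-culture and 2 were lower, beside 2.75% and 4.45% of all tested unigenes. The groups did not overlap for 12 unigenes with higher and 11 with lower co-culture values, beside 12.8% and 17.2% of all tested unigenes. The fit placed 40 above and 33 below plant alone, beside 50.1% and 49.9%. These shares lay near the background in both directions. The median log2 fold change of the 73 was 0.08, beside 0.00 over all tested unigenes, and its single values ran from -3.34 to 4.99. Without plant alone 2 the median was 0.63, with 84 of the list tested. Without co-culture 3 it was -0.10, with 67 tested. These sets differ from the 73, so the medians are not shifts of the same unigenes. The median log2 deviation of the list in each library, a different measure, had an SD of 0.181 between the libraries. Refitted without plant alone 2 or 3, DESeq2 called 5 and 3 unigenes of the list at an adjusted p of 0.05, beside 4.66% and 3.52% of all unigenes tested there. Without co-culture 1, 2 or 3 it called 7, 3 and 3, beside 4.28%, 3.32% and 4.71%. As shares of the tested list these were 5.95%, 3.57%, 10.1%, 4.48% and 4.48% in the same order.

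**Figure D1:**
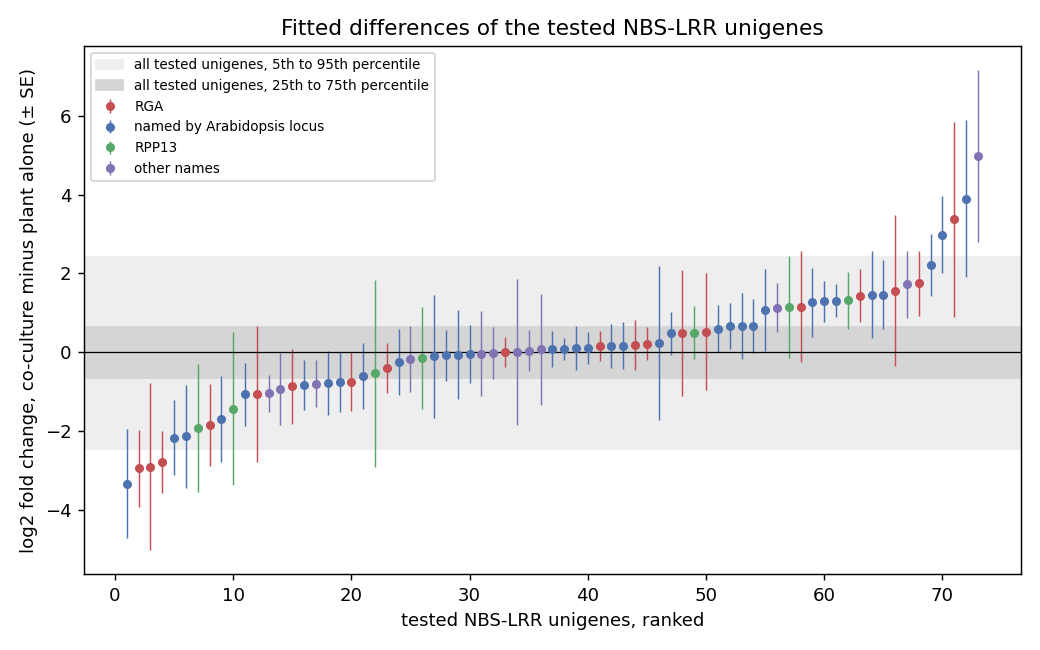
Fitted log2 fold change (co-culture minus plant alone, points with SE bars) of the 73 tested resistance unigenes, ranked and coloured by name group, over grey bands for the percentiles of all tested unigenes. The points run from -3.34 to 4.99 around a median of 0.08, and most lie between the 5th and 95th percentiles of all tested unigenes, -2.46 and 2.43.

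The summed level of the 98 was 562.3 and 443.8 CPM in plant alone 2 and 3, and 451.4, 395.8 and 553.5 CPM in co-culture 1, 2 and 3. The groups overlapped. A part of this total came from 5 unigenes named RGA2, which held 24.3% and 19.9% of it in plant alone and 2.42%, 1.17% and 5.96% in co-culture. Without them the sums were 425.8 and 355.5 CPM in plant alone and 440.5, 391.2 and 520.5 CPM in co-culture, which again overlapped.

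**Figure D2:**
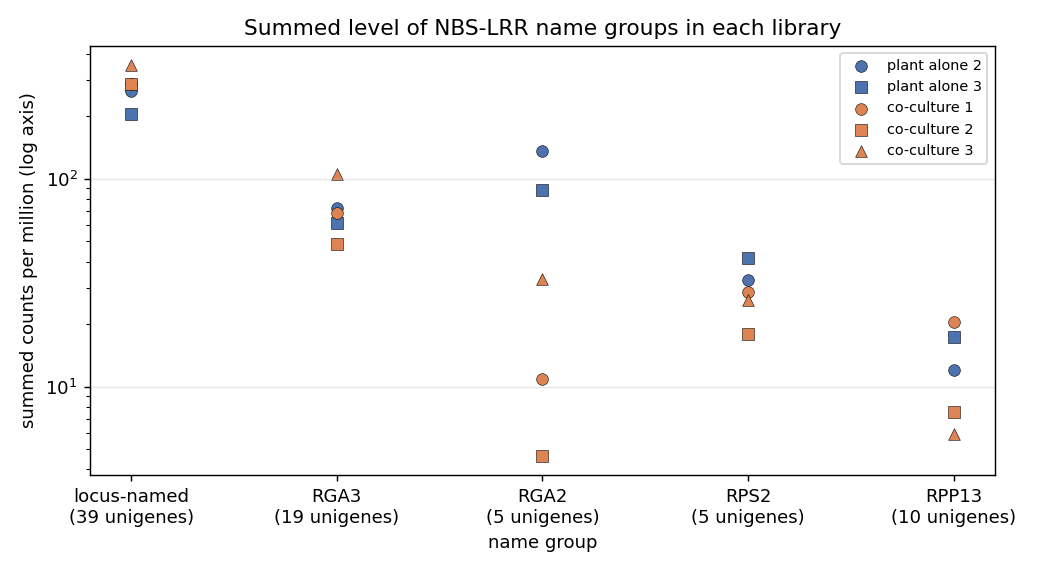
Summed TMM-scaled CPM (log axis) of 5 name groups in each of the 5 libraries, blue for plant alone and orange for co-culture. Only for RGA2 and RPS2 do the plant alone libraries both lie above all 3 co-culture libraries, with RGA2 at 136.5 and 88.3 CPM against 10.9, 4.65 and 33.0 CPM. The locus-named group has the reverse order, at 265 and 205 CPM in plant alone against 287.5, 288.1 and 352.2 CPM in co-culture. Contigs of cluster CL13860, whose sum overlaps between the groups, are divided between RPS2 and the locus-named group.

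RGA stands for resistance gene analog, and the RGA names go back to receptors of wild potato, where one of the group gives resistance to late blight. With 28 unigenes it was the largest group with a protein name. Of its 19 tested unigenes, 11 were fitted higher and 8 lower in co-culture, with a median log2 fold change of 0.16. At an unadjusted p of 0.05 none was higher and 2 were lower, beside 2.75% and 4.45% of all tested unigenes.

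Those 2 were the RGA2-like unigenes Unigene3127 and CL5728.Contig1, 794 and 522 bases long, which shared their best hit, a banana protein. Unigene3127 had the highest mean level per length of all 98. Its level was 148 and 88.9 FPKM in plant alone 2 and 3, and 9.82, 2.75 and 38.7 FPKM in co-culture 1, 2 and 3. On the count scale it stood at 114 and 74.4 CPM in plant alone and at 7.84, 2.42 and 26.2 CPM in co-culture. Every plant alone value lay above every co-culture value. The log2 fold change was -2.95 (SE 0.98, edgeR adjusted p = 0.628, DESeq2 adjusted p = 0.143). CL5728.Contig1 followed the same order of libraries, with 21.9 and 13.1 CPM in plant alone and 1.83, 0.890 and 4.87 CPM in co-culture. Its log2 fold change was -2.79 (SE 0.79, edgeR adjusted p = 0.628, DESeq2 adjusted p = 0.0768).

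The ratio of Unigene3127 to CL5728.Contig1 was 5.20, 5.66, 4.29, 2.72 and 5.38 in plant alone 2 and 3 and co-culture 1, 2 and 3. The pair thus kept close to 1 proportion in 4 of the 5 libraries, and reads shared between these fragments cannot be told apart from transcripts that move together. Without co-culture 3, the log2 fold change of Unigene3127 was -4.19, and the DESeq2 adjusted p of the pair was 6.66e-07 and 7.65e-06. Without co-culture 2 those were 0.0203 and 0.0207, and neither was called without any other single library. The remaining RGA2 unigenes, CL15750.Contig3, CL15750.Contig6 and Unigene43869, did not exceed 1.11 CPM in any library.

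RGA3 was named for 19 unigenes, all with monocot hits. Of the 15 tested, 10 were fitted higher and 5 lower, with a median log2 fold change of 0.22. Their sums were 72.5 and 61.2 CPM in plant alone and 68.8, 48.7 and 105.2 CPM in co-culture. The co-culture libraries thus lay on both sides of plant alone.

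In cluster CL10005, 6 RGA3 contigs of 4274 to 5277 bases shared a single oil palm hit. Together they gave 14.1 and 16.7 CPM in plant alone 2 and 3, and 14.4, 10.2 and 10.8 CPM in co-culture 1, 2 and 3. Contig5 led in 4 libraries and stood at 0 in co-culture 3, where Contig3 led with 5.69 CPM. Contig3 was at 0.471 and 0 CPM in plant alone and at 0 and 1.88 CPM in co-culture 1 and 2. The total ran from 10.2 to 16.7 CPM while the contig that carried most of it differed between libraries. The log2 fold change of the cluster sum was -0.37 (edgeR adjusted p = 0.702).

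A second RGA3 cluster, CL13445, held 2 contigs. Contig1 stood at 7.95 and 7.40 CPM in plant alone, and at 12.1, 0.742 and 38.1 CPM in co-culture 1, 2 and 3. Contig2 gave 11.0 and 9.46 CPM in plant alone, and 7.53, 12.5 and 15.8 CPM in co-culture. Co-culture 2 and 3 thus held the lowest and the highest value of Contig1, with plant alone between them.

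**Figure D3:**
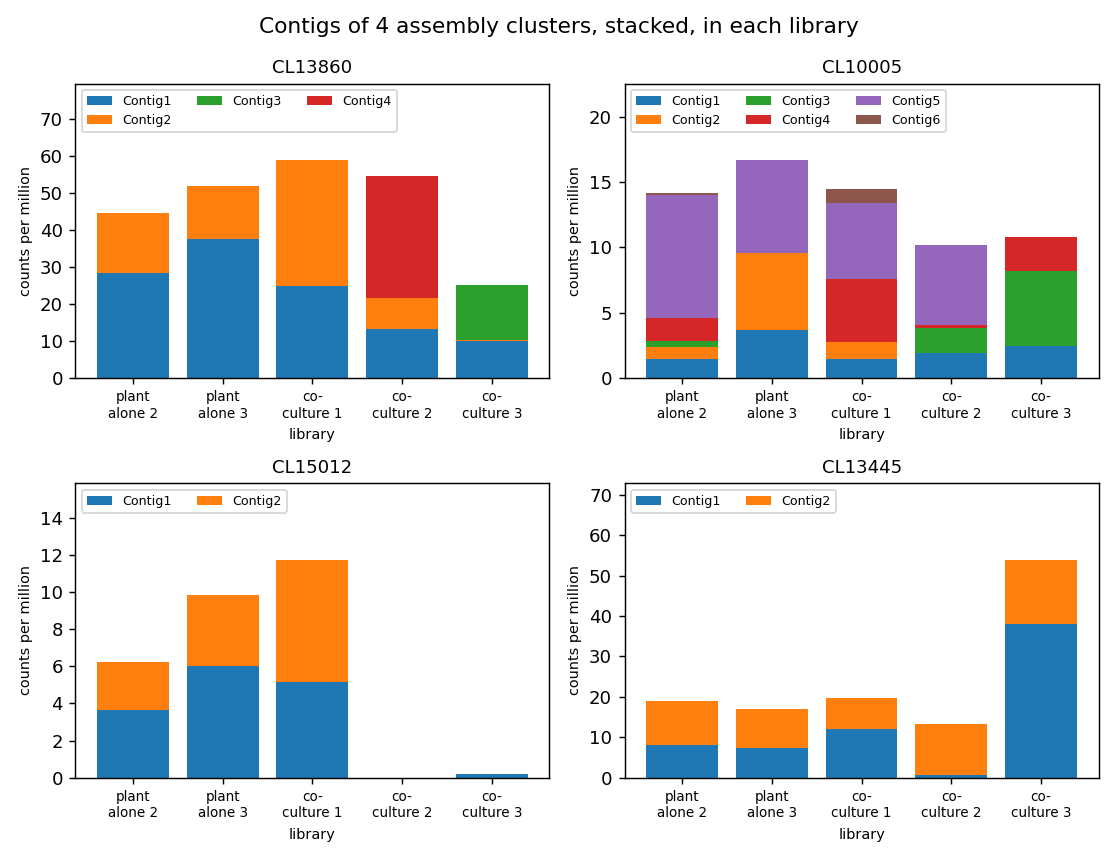
Stacked CPM of the contigs of 4 assembly clusters in each library (linear axes from 0, one colour per contig): CL13860, CL10005, CL15012 and CL13445. In CL13860, Contig4 appears only in co-culture 2 and Contig3 only in co-culture 3, and CL15012 is at 0 and 0.206 CPM in co-culture 2 and 3.

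RPM1 and RPS2 are Arabidopsis receptors that guard another protein, the membrane protein RIN4. RPM1 was named for 3 short unigenes of 234 to 364 bases, and 1 of them, Unigene43022, was tested. It stood at 0.105 and 0.229 CPM in plant alone and at 0.312, 0.544 and 0.825 CPM in co-culture. The groups did not overlap, with plant alone at or near the limit that a count of 0 allows (log2 fold change 1.72, edgeR adjusted p = 0.628).

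RPS2 was named for 5 unigenes, of which 3 were tested. The longest, CL13860.Contig1 with 3068 bases, stood at 28.4 and 37.6 CPM in plant alone and at 24.8, 13.2 and 10.1 CPM in co-culture. The 3 co-culture values all lay below plant alone (log2 fold change -1.04, SE 0.47, edgeR adjusted p = 0.628). Unigene365 showed no such order, with 4.03 and 3.73 CPM in plant alone and 3.56, 2.57 and 5.81 CPM in co-culture (log2 fold change 0.04, SE 0.53).

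Unigene37586, an RPS2-like fragment of 212 bases, had the largest fitted difference of all 73, a log2 fold change of 4.99 (SE 2.18, edgeR adjusted p = 0.628). Its level per length was 0.29 and 0.89 FPKM in plant alone and 0.48, 6.78 and 61.9 FPKM in co-culture 1, 2 and 3. Co-culture 3 held most of this difference: its 9.69 CPM stood beside 1.38 CPM in co-culture 2, 0.0891 CPM in co-culture 1, and 0.0523 and 0.172 CPM in plant alone. DESeq2 called it without co-culture 1 (adjusted p = 0.0075) and not with all 5 libraries (adjusted p = 0.153). Without co-culture 3 or without co-culture 2 the edgeR filter left it untested.

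The other contigs of cluster CL13860 were named for the Arabidopsis locus At1g61300, a coiled-coil receptor gene, and shared 1 oil palm hit. Contig2 gave 16.1 and 14.4 CPM in plant alone 2 and 3, and 34.1, 8.51 and 0.247 CPM in co-culture 1, 2 and 3. Contig4 stood at 0 in every library but co-culture 2, where it reached 33.0 CPM. Contig3 stood at 0 in every library but co-culture 3, where it reached 14.7 CPM. Each co-culture library thus had another leading At1g61300 contig, of 1418 to 1519 bases. The filter removed Contig3 and Contig4, since each rested on 1 library. Summed over its 4 contigs, the cluster stood at 44.5 and 52.0 CPM in plant alone and at 58.9, 54.6 and 25.03 CPM in co-culture (log2 fold change -0.05, edgeR adjusted p = 0.974).

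RPP13 and RPP8 are Arabidopsis receptors for downy mildew. RPP13 was named for 10 unigenes, and of the 7 tested, 3 were fitted higher and 4 lower, with a median log2 fold change of -0.15. The smallest p among them belonged to Unigene47391, at 0.262 and 0.172 CPM in plant alone and 0.356, 0.593 and 0.701 CPM in co-culture (log2 fold change 1.32, SE 0.73, edgeR adjusted p = 0.656). Its groups did not overlap, at levels below 1 CPM in every library. The only listed unigene grouped with RPP8 carried the name RPH8A, was a 200-base fragment and was not tested. A further 3 unigenes described as RPP8-like fell outside the rule.

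Uneven across libraries was the RPP13 pair of cluster CL15012, contigs of 2349 and 2202 bases. Together they stood at 6.22 and 9.86 CPM in plant alone and at 11.8, 0 and 0.206 CPM in co-culture 1, 2 and 3. A count of 0 in co-culture 2 allows up to 0.148 CPM. Co-culture 1 was thus the highest library and co-culture 2 and 3 were at or near 0 (edgeR adjusted p = 0.884 for the sum). Without co-culture 1, the highest library, DESeq2 called both contigs lower, with adjusted p = 0.00765 and 0.000531. With all 5 libraries the DESeq2 adjusted p was 0.9 and 0.98. In cluster CL2338, named mainly for At1g50180, co-culture 2 and 3 were also the lowest libraries for 2 contigs, with co-culture 1 between them and plant alone. The cluster as a whole was low only in co-culture 2. Its sum was 13.5 and 17.4 CPM in plant alone and 14.2, 2.52 and 13.2 CPM in co-culture (log2 fold change -0.63, edgeR adjusted p = 0.784). CL2338.Contig4 stood at 1.83 and 1.49 CPM in plant alone and at 0.980, 0.0495 and 0.0825 CPM in co-culture, and without co-culture 1 DESeq2 called it lower (adjusted p = 0.0269).

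Names of Arabidopsis loci were carried by 39 unigenes, the largest group of all. Of the 35 tested, 21 were fitted higher and 14 lower in co-culture, with a median log2 fold change of 0.11. The 39 summed to 265 and 205 CPM in plant alone and to 287.5, 288.1 and 352.2 CPM in co-culture. These sums did not overlap between the groups and were not tested. They include contigs of cluster CL13860, whose Contig1 counts with RPS2, so both name sums depend on how reads split within that cluster. Summed over its contigs, CL13860 overlapped between the groups, with 44.5 and 52.0 CPM in plant alone and 58.9, 54.6 and 25.03 CPM in co-culture. All 3 unigenes higher at an unadjusted p of 0.05 were in this group. Their groups did not overlap.

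Unigene1741, 1912 bases long and named for At1g12290, stood at 5.80 and 7.68 CPM in plant alone and at 17.2, 21.1 and 11.8 CPM in co-culture. Its level per length showed the same order of groups, with 3.03 and 3.71 FPKM in plant alone and 8.73, 9.59 and 7.02 FPKM in co-culture. The log2 fold change was 1.31 (SE 0.41, edgeR adjusted p = 0.628, DESeq2 adjusted p = 0.145), and it ran from 1.11 to 1.54 when each library was left out in turn. DESeq2 called it only without co-culture 3 (adjusted p = 0.0451).

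At1g50180 is known in Arabidopsis as CAR1, a receptor for bacterial effectors. It was named for 10 unigenes, all tested, of which 7 were fitted higher and 3 lower. Unigene43023, a fragment of 453 bases, stood at 0.471 and 0.631 CPM in plant alone and at 1.11, 3.31 and 3.34 CPM in co-culture. Co-culture 1 lay nearest to plant alone. The log2 fold change was 2.22 (SE 0.78, edgeR adjusted p = 0.628). Without co-culture 1 DESeq2 gave an adjusted p of 0.0484, against 0.176 with all 5 libraries. The longest unigene of this name, Unigene477, overlapped between the groups, with 7.90 and 26.2 CPM in plant alone and 19.8, 16.5 and 19.0 CPM in co-culture. DESeq2 called it higher without plant alone 3 (adjusted p = 0.00527), the library with its highest value.

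CL1499.Contig2, named for At1g61300, stood at 0.105 and 0.287 CPM in plant alone and at 0.624, 2.18 and 1.98 CPM in co-culture. The log2 fold change was 2.99 (SE 0.97, edgeR adjusted p = 0.628, DESeq2 adjusted p = 0.148). It belonged to the largest cluster, 11 contigs of which 8 were on the list, and with the cluster summed the log2 fold change was 0.08. The cluster's main contig, CL1499.Contig8 with 4597 bases, stood at 60.1 and 44.0 CPM in plant alone and at 54.8, 50.6 and 61.4 CPM in co-culture. Its groups overlapped (log2 fold change 0.09, SE 0.28).

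**Figure D4:**
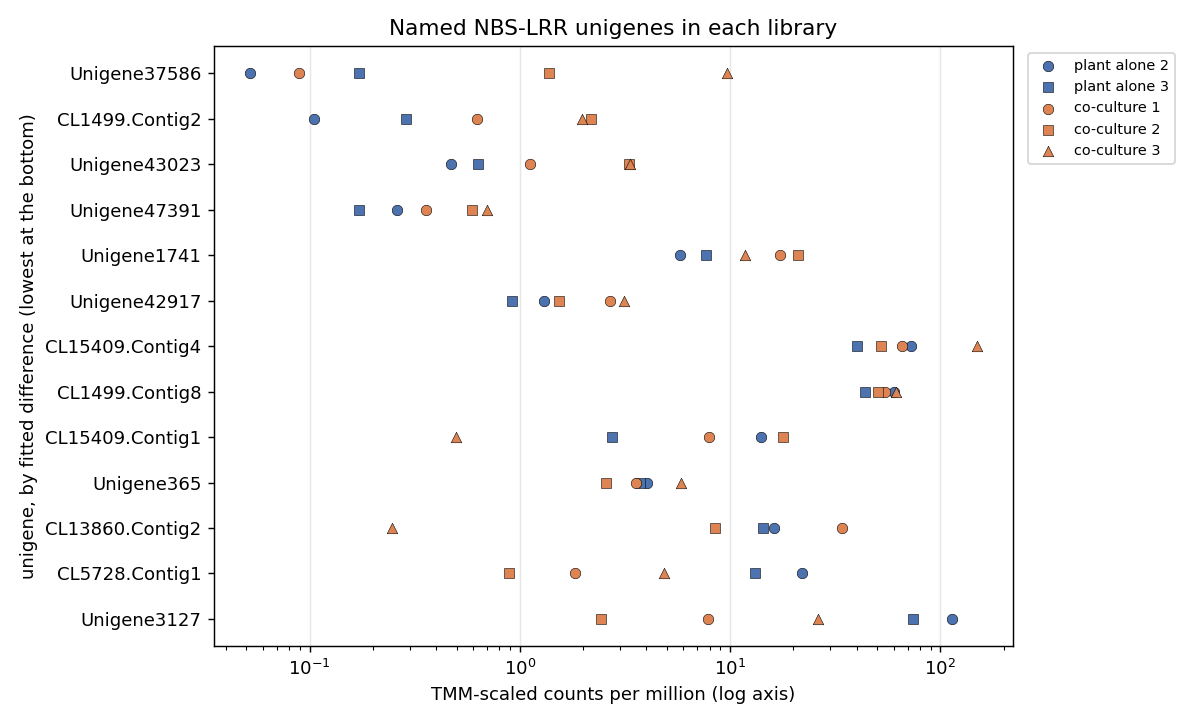
TMM-scaled CPM (log axis) of 13 resistance unigenes in each library, 1 row per unigene, blue for plant alone and orange for co-culture, ordered by fitted log2 fold change. The 2 RGA2-like unigenes at the bottom have both plant alone values above all co-culture values, while CL1499.Contig8 stays between 44.0 and 61.4 CPM.

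The locus At1g58602 is known in Arabidopsis as RPP7, a downy mildew receptor gene. Its 3 unigenes shared 1 asparagus hit and differed in direction. The 3071-base Unigene5593 stood at 33.9 and 13.5 CPM in plant alone and at 30.0, 11.7 and 5.20 CPM in co-culture (log2 fold change -0.60). Unigene5595, of 1602 bases, stood at 2.20 and 1.95 CPM in plant alone and at 3.16, 6.28 and 5.81 CPM in co-culture (log2 fold change 1.29, SE 0.53, edgeR adjusted p = 0.628). The groups overlapped for Unigene5593 and not for Unigene5595. The third, Unigene5596, also overlapped, with 2.77 and 2.01 CPM in plant alone and 3.16, 4.45 and 2.39 CPM in co-culture (log2 fold change 0.48).

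At1g12280, known in Arabidopsis as SUMM2, a receptor that watches a MAP kinase cascade, was named for 4 unigenes. Its Unigene34872, a 303-base fragment, had the lowest fitted value of the list: 4.76 and 3.73 CPM in plant alone and 0.446, 0 and 0.784 CPM in co-culture (log2 fold change -3.34, SE 1.38, edgeR adjusted p = 0.628). Without co-culture 2, where it stood at 0, DESeq2 gave an adjusted p of 0.00196, against 0.282 with all 5 libraries. The other 3 unigenes of that name had log2 fold changes of 0.08, -0.04 and -0.78 in the edgeR fit.

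At4g27220 was named for 4 unigenes, among them CL15409.Contig4 with 4582 bases. Of the listed unigenes it had the most reads in co-culture 1, 2 and 3. The level of CL15409.Contig4 was 72.4 and 40.4 CPM in plant alone 2 and 3, and 65.8, 52.3 and 149 CPM in co-culture 1, 2 and 3. Co-culture 3 stood above the rest and the other 4 libraries overlapped (log2 fold change 0.66, SE 0.58). Without co-culture 3 the log2 fold change was 0.07. CL15409.Contig1, a 533-base contig of the same cluster described only as a disease resistance protein, had the reverse extreme, with 0.495 CPM in co-culture 3 against 2.75 to 18.0 CPM in the other libraries.

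Of the unigenes with TIR in the description, 1 was tested. Unigene42917, 1679 bases long, stood at 1.31 and 0.917 CPM in plant alone and at 2.67, 1.53 and 3.13 CPM in co-culture. The groups did not overlap (log2 fold change 1.13, SE 0.62, edgeR adjusted p = 0.656).

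The authors' deposited table compared pooled counts of each group and called 26 of the 98 Up in co-culture and 15 Down, beside 16.3% and 13.6% of its 112092 unigenes. That pool of plant alone holds reads that were not analysed here. The RPM1-like Unigene27932 shows the difference. For it the authors' deposited table gives 15 pooled plant alone reads and a log2 ratio of -2.49. In both plant alone libraries used here it stood at 0. For Unigene3127 and CL5728.Contig1 the authors' deposited table gives log2 ratios of -2.23 and -2.09, and for Unigene1741 it gives 1.85. The authors' deposited table of called unigenes that match known resistance genes has 471 entries and holds 9 of the 98. Of those 9, 5 are in the class with coiled coil, nucleotide-binding and leucine-rich repeat domains. The other 4 are in the class without the coiled coil. Classes with a nucleotide-binding domain hold 224 of the 471, 145 Up and 79 Down, beside 18303 Up and 15229 Down over all unigenes. Most of those 224 were not on the list, so the 98 are not the whole family.

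The proteins that work with NBS-LRR receptors were searched by name. NDR1 is a membrane protein that several coiled-coil receptors need, SGT1 and RAR1 act with the chaperone HSP90 to keep receptors stable, and EDS1, PAD4 and SAG101 act below TIR-type receptors. Descriptions with NDR1, NDR1/HIN1-like, RIN4, SGT1, RAR1 or PBS1 were found for 39 unigenes, and the words EDS1, PAD4, SAG101, RPW8, CPR1 and SRFR1 matched 0. Of the 37 tested, 22 were fitted higher and 15 lower, with a median log2 fold change of 0.26, and 0 reached an unadjusted edgeR p of 0.05 in either direction, beside 2.75% and 4.45% of all tested unigenes. DESeq2 called 0 of them at an adjusted p of 0.05. The groups did not overlap for 3 of the 37 with higher and 3 with lower co-culture values, beside 12.8% and 17.2% of all tested unigenes.

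RIN4, the guarded protein of RPM1 and RPS2, had 7 unigenes, 2 fitted higher and 5 lower. The most abundant by counts, CL10240.Contig3, stood at 106.9 and 111.2 CPM in plant alone and at 79.3, 77.7 and 78.8 CPM in co-culture. The libraries of each group lay close together and the groups did not overlap (log2 fold change -0.47, SE 0.24, edgeR adjusted p = 0.642, DESeq2 adjusted p = 0.361). For Contig1 and Contig2 of the same cluster the groups overlapped. PBS1, a protein kinase, had 5 tested unigenes, all fitted higher, with a median log2 fold change of 0.32. Its CL8779.Contig1 stood at 19.8 and 20.5 CPM in plant alone and at 19.3, 25.7 and 25.6 CPM in co-culture, which overlapped.

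All 4 SGT1 unigenes were fitted higher, with a median log2 fold change of 0.35 and overlapping groups. The most abundant by counts, Unigene17372, stood at 32.0 and 49.1 CPM in plant alone and at 46.5, 51.8 and 47.9 CPM in co-culture. Without plant alone 2 its log2 fold change was -0.02. The RAR1 name was carried by 2 contigs of cluster CL10513. CL10513.Contig2 stood at 6.54 and 9.46 CPM in plant alone and at 9.58, 22.6 and 10.6 CPM in co-culture (log2 fold change 0.83, SE 0.53, edgeR adjusted p = 0.693). The 2 groups did not overlap for either contig, although plant alone 3 and co-culture 1 were nearly equal for Contig2.

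NDR1 itself had 2 unigenes, and CL9748.Contig1 stood at 36.3 and 7.51 CPM in plant alone and at 28.8, 10.8 and 6.64 CPM in co-culture. The spread within each group was wider than the distance between them. NDR1/HIN1-like proteins, relatives of NDR1, had 17 tested unigenes, 8 fitted higher and 9 lower. The most abundant by counts, Unigene24882, stood at 213.1 and 95.6 CPM in plant alone and at 115.6, 87.1 and 127.3 CPM in co-culture, with a log2 fold change of -0.49 (SE 0.44).

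**Figure D5:**
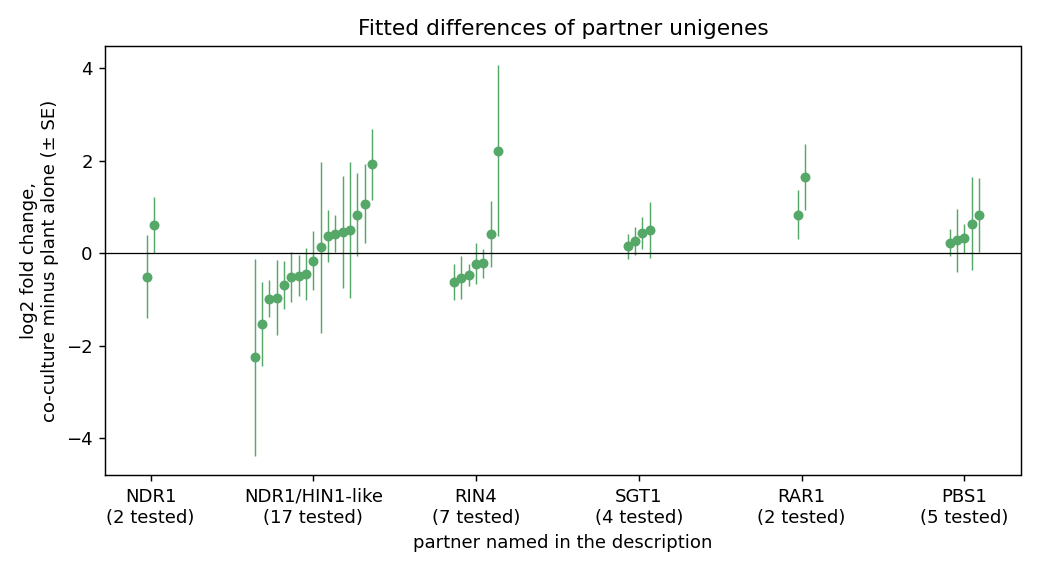
Fitted log2 fold change (co-culture minus plant alone, points with SE bars) of the 37 tested partner unigenes, by the name in the description. All SGT1, RAR1 and PBS1 points lie above 0 and the other groups lie on both sides, and no unigene reached an unadjusted edgeR p of 0.05.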

How the data were processed

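Leaf poly(A) RNA of 5 libraries was analysed. The authors quantified reads against assembled unigenes with RSEM and Bowtie2, per the submitters' processing notes; versions and the assembler are not given in the sources used here. Per the file headers, the deposited values are RSEM expected counts and FPKM, and the deposited comparison holds pooled expected counts, a log2 ratio, p-values and q-values per unigene; its resistance gene table lists receptor classes. DESeq2 is named in the submitters' processing notes, and the deposited comparison carries another tool's name, so its test is unsure.

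Expected counts were rounded, and a unigene missing from a library was set to 0. All 69984 unigenes that passed filterByExpr were fitted with edgeR 4.0.16 (TMM, quasi-likelihood F test, group as the only term, Benjamini-Hochberg adjustment) in R 4.3.3, and with DESeq2 1.42.0 on the same unigenes. The scripts were tested on simulated data. FPKM values are the authors' own. The members and lists were chosen with earlier results of these data known. Named unigenes were those past a threshold (none), the 8 per direction with the largest log2 fold change at an unadjusted p under 0.05 with groups that do not overlap and a mean of at least 1 CPM, the 8 with the highest mean FPKM, and the smallest p in each name group with at least 5 tested, plus the most abundant unigene per partner name; this gave 13 resistance unigenes. Others named were chosen after their values were seen. Identifiers are given without their common suffix. No pair of libraries matched within counting noise (chi-square per degree of freedom of at least 75.2). Alternatives were RLE scaling, no filter, DESeq2, a replicate block, clusters summed, subsets of the list and each library left out.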

Additional observations from a re-analysis of the deposited data

How the results depend on the processing

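The count of resistance unigenes past an adjusted edgeR p of 0.05 was 0 with RLE scaling, without a filter, with the block, with clusters summed and without each library in turn. Over all unigenes, DESeq2 called 1313, and 811 with clusters summed, against 0 in edgeR. At an unadjusted p of 0.05, DESeq2 placed 6 of the list higher and 3 lower (6.27% and 5.95% of all unigenes), and with clusters summed 5 higher and 4 lower (5.62% and 7.62%), against 3 and 2. Deviations from the group means correlated between same-numbered libraries at 0.0382 and 0.0822 over 69984 unigenes. The deviations of the 2 plant alone libraries mirror each other, so these values cannot decide whether replicate numbers pair the libraries. With the replicate block, 2 of the list were higher and 8 lower, or 2.74% and 11% of those tested (3.28% and 3.43% of all unigenes). Leaving out each co-culture library in turn gave 1 to 5 higher and 3 to 7 lower (1.95% to 4.75% and 3.17% to 7.11% of all unigenes). The 5 and 7 came without co-culture 1, as 7.25% and 10.1% of the tested list, beside 4.75% and 5.25% of all unigenes there. The refits that left a lone plant alone library are not in these counts. Over all 5 refits the median of the log2 fold changes ran from -0.10 to 0.63, with 67 to 84 of the list tested. DESeq2 calls on the list numbered 3 to 7 when a library was left out, against 0 with all 5: 5 and 3 without plant alone 2 and 3, and 7, 3 and 3 without co-culture 1, 2 and 3. Those refits called 3.32% to 4.71% of all unigenes. These were 17 different unigenes, 4 of them called more than once and 0 in all 5 settings. Without a plant alone library the lone sample is assumed to vary like the others, and the filter let in contigs seen in 1 library, such as CL13860.Contig3 and CL13860.Contig4. The DESeq2 refits, the cluster sums in DESeq2 and the list of single unigenes were added after seeing the data. The cause of these shifts was not tested. For the 13 unigenes named by rule, 112 of 119 alternative log2 fold changes stayed within 1 SE and 8 changed sign. At these depths, levels near 0.124 to 0.172 CPM cannot be told from 0.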
